A study of Mus musculus with 20 samples.

Results

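The promoters of the vomeronasal type 1 receptor genes were examined in mouse sperm DNA. They were taken as all rows of the promoter table whose gene symbol begins with Vmn1r, which gave 144 of 22480 promoters. Vomeronasal type 1 receptors are G protein-coupled receptors of the apical sensory neurons of the vomeronasal organ, where they couple to the G protein alpha subunit Gnai2 and detect pheromones and other social odours. A neuron expresses 1 receptor gene and keeps the others silent. The coding sequence lies in a single exon, and noncoding exons can lie upstream of it. The genes occur as arrays of near copies. Of the 144 promoters, 49 were on chromosome 7, 47 on chromosome 6, 34 on chromosome 13, 13 on chromosome 17 and 1 on chromosome 1.

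Methylated DNA was captured from sperm with a methyl-CpG-binding domain protein and sequenced (MBD-seq), so that read numbers follow the number and methylation of CG sites in a fragment. Sperm came from the vas deferens and epididymis of 20 males aged 8 weeks, 5 in each of 4 groups, namely controls and DEHP males of strain C57BL/6J and controls and DEHP males of strain FVB/N. DEHP, di-(2-ethylhexyl)phthalate, is a plasticizer that was given by mouth to the mothers at 300 mg/kg/day between gestation days 9 and 19, while control mothers received the corn oil vehicle alone. The labels do not say which males were littermates. Libraries of DEHP and control males were submitted for sequencing separately and were read at 51 and 49 bases. On average more read pairs were sequenced for DEHP libraries than for control libraries. These differences cannot be told apart from that of treatment, whereas each submission held 5 males of both strains.

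The values were the authors' mean and standard deviation (SD) of 5 libraries per group in normalized reads over a probe of 2200 bp, from 2000 bp upstream to 200 bp downstream of the start of a gene, on mm10. Single libraries were not used here, so every comparison is of group means and carries no test. Means were scaled to equal sums over all promoters, and a level below is such a scaled mean. The sums before scaling were 226268 normalized reads in the controls and 153283 in the DEHP group of C57BL/6J, and 141092 and 150346 in those of FVB/N. A change is log2((first + 1)/(second + 1)) of levels, which understates the change of promoters with few reads. A change was called larger than the spread where the ranges of mean ± 1 SD of both groups did not overlap. It was called separated where the ranges of mean ± 1.79 SD did not overlap, the farthest that 1 of 5 libraries can lie from its mean if the SDs are sample SDs.

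The members are poor in CG sites, and the reads of a whole probe come from a handful of positions. Stretches of 200 bases are shown on the strand of the gene, with each CG site in capitals, each being the part of the probe that is densest in CG sites (RefSeq sequence of GRCm38.p6, the assembly of mm10). Vmn1r88 had the most CG sites of the family, 28 in the probe and 11 in the stretch shown (chr7:13176714-13176913, plus strand), and Vmn1r31 had the fewest, a single site (chr6:58473235-58473434, minus strand). Vmn1r85 (chr7:13087016-13087215, minus strand) and Vmn1r35 (chr6:66680151-66680350, minus strand) had the largest changes after DEHP in C57BL/6J mice and in FVB/N. Vmn1r1 (chr1:182159899-182160098, minus strand) and Vmn1r188 (chr13:22086563-22086762, plus strand) were listed at 0 in both FVB/N groups.
Vmn1r88: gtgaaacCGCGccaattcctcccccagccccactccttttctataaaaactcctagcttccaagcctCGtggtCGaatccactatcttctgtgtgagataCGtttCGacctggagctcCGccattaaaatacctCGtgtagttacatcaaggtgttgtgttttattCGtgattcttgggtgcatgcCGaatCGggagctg
Vmn1r31: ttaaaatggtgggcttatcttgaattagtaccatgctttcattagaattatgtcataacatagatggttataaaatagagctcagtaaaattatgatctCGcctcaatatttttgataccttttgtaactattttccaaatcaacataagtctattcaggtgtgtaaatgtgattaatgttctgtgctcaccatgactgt
Vmn1r85: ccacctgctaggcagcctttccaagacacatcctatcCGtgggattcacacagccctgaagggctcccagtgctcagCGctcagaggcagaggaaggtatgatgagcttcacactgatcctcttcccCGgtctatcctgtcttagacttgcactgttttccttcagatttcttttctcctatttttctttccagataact
Vmn1r35: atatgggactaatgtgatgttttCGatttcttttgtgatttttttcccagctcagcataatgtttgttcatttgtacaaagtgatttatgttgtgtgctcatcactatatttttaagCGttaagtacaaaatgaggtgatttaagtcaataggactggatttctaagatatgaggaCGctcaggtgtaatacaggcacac
Vmn1r1: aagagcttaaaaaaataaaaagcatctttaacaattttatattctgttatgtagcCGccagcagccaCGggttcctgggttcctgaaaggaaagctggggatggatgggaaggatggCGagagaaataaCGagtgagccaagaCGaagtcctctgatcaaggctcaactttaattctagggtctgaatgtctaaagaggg
Vmn1r188: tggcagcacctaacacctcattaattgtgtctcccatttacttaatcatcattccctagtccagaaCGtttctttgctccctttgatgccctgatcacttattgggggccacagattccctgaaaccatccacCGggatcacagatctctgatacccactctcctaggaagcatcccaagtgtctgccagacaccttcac

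The stretch of Vmn1r88 holds 11 CG sites in 200 bases, against 3 for Vmn1r85, 3 for Vmn1r35, 5 for Vmn1r1 and 2 for Vmn1r188. The median probe of the family held 8 CG sites (1 to 28) beside 45 for all promoters, and 116 of 144 members held at most 10, which was true of 8.92% of all promoters. The fewest were in Vmn1r31 (1 site), Vmn1r18 and Vmn1r28 (2 each), and the most after Vmn1r88 were in Vmn1r124 and Vmn1r198 (20 each). The deposited number of CG sites equalled the number counted in GRCm38.p6 for 143 of 144 members. The sites were spread over the probe rather than gathered at the start site: the interval from 250 bp before to 50 bp after it held 160 of 1170 sites (13.7%), and 48 members had none there. The median GC content was 36.5% for the members and 48.0% for all promoters, and the repeat-masked share of the probe was similar (medians 19.9% and 19.2%).

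Where these probes lie in the genes was read from GENCODE vM21 and RefSeq coordinates of the same assembly. For 120 of 144 members the start used for the probe was the first base of a start codon. For 106 members an annotated transcript began over 2000 bp farther upstream, outside the probe, and the whole probe lay within the annotated gene. The median distance from the probe's start to the farthest upstream transcript start was 3336 bp, and a median of 414 of the 2200 bp were exonic. The start used was itself the start of an annotated transcript for 105 members. For most members the values therefore describe the region before the coding exon, partly intronic, and not the farthest annotated transcript start. GENCODE gave 143 members as protein-coding and 1, Vmn1r-ps103, as an unprocessed pseudogene.

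Members share sequence with each other. Of sequences of 51 bases taken every 20 bp along the probe, a median of 95.4% were unique in the assembly (24.1% to 100%), against 99.1% for all promoters, and 26 members (18.1%) fell under 80%, beside 4.55% of all promoters. Vmn1r113 (39.8%), Vmn1r124 (34.3%) and Vmn1r88 (52.8%) were among those that share most. The share of unique 49-base sequences, the length of the control reads, was at most 3.70 percentage points lower than that of 51 bases. The authors removed read pairs with several matches in the genome, so values of members with many shared sequences come from fewer bases of the probe and are uncertain. The shares here are for single reads, and those of read pairs were not computed.

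In control sperm the members carried few reads (the plot of levels by group). The median level was 1.04 normalized reads in C57BL/6J controls, where levels ran from 0 to 6.97, and 1.07 in FVB/N controls, from 0 to 12.4, beside 3.71 and 3.57 for all promoters. After DEHP the medians were 3.28 in C57BL/6J (0.657 to 15.6) and 3.01 in FVB/N (0 to 13.6), beside 5.80 and 5.47. Members listed at 0 numbered 8 and 10 in the C57BL/6J and FVB/N controls, and 0 and 3 after DEHP. Summed over the family, the members made up 0.121% of the promoter reads in C57BL/6J controls and 0.347% after DEHP, and 0.135% and 0.298% in FVB/N. The library-to-library spread was wide: among members with authors' means of 1 to 5, the median ratio of SD to mean was 0.812 in C57BL/6J controls and 0.976 in FVB/N controls, 0.527 and 0.576 after DEHP, beside 0.697, 0.900, 0.538 and 0.560 for all promoters in that range.

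**Figure D1:**
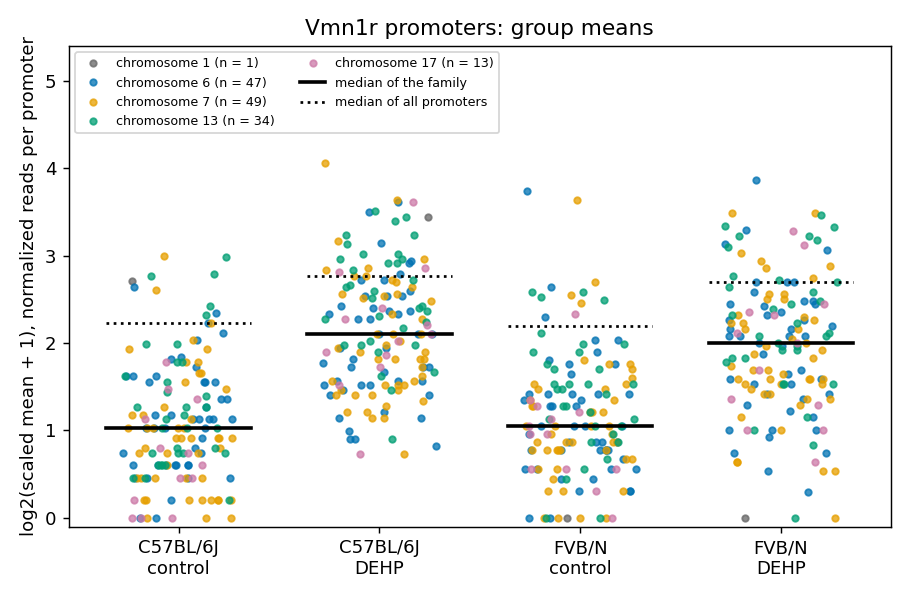
Levels of the 144 Vmn1r promoters in the 4 groups, as log2 of the scaled group mean + 1 in normalized reads (y axis); each point is 1 promoter, coloured by chromosome, solid bars are the medians of the family and dotted bars the medians of all 22480 promoters. The family median was 1.04 and 1.07 normalized reads in the controls and 3.28 and 3.01 after DEHP, below the median of all promoters in each group.

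The members with the highest mean over the 4 groups were Vmn1r124 (8.89 normalized reads, 20 CG sites), Vmn1r54 (8.84, 14 sites), Vmn1r218 (7.74, 7 sites), Vmn1r88 (7.72, 28 sites) and Vmn1r45 (7.27, 9 sites). Across the 144 members the level went with the number of CG sites (Spearman's rho = 0.61, Pearson's r = 0.65), as a description over probes that share libraries and capture. Members with 1 to 5 sites had a median level of 1.34 and those with 11 to 15 sites 4.35, beside 1.41 and 5.13 for promoters outside the family with as many sites. With 6 to 10 sites the medians were 2.04 for members and 2.52 for other promoters.

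The first comparison asked what prenatal DEHP exposure left in the sperm methylation of C57BL/6J males. The level was higher in the DEHP group than in controls at 139 of 144 members, and the median change was 1.07, beside 0.33 for all promoters. Summed over the family the level was 204 in controls and 583 after DEHP, a ratio of 2.86. Changes above 1 were found at 77 members (53.5%), where 14.7% of all promoters were above 1, and changes below -1 at 0 members, where 2.22% of all promoters were. The increase was larger than the spread at 57 members (all promoters, 11.8%) and the decrease at 0 (2.63%). Separated ranges were found at 7 members, all higher after DEHP, against 1.02% of all promoters in that direction, and at 0 in the other, against 0.129%. With members listed at 0 in either group left out, 70 of 136 were above 1 and the median was 1.05. Scaling to equal medians left 45 members above 1, beside 3.83% of all promoters, and means as deposited left 51, beside 5.09%. Increases larger than the spread then numbered 30 (all promoters, 3.11%) and 31 (3.67%), and under both 5 members stayed separated upward, without Vmn1r196 and Vmn1r38. These are means of bulk sperm DNA, in which methylation in more of the sperm, more methylated CG sites per sperm and DNA of other cells cannot be told apart. Sperm purity was examined in the study under a phase contrast microscope, and preparations in which somatic cells were seen were not kept.

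Vmn1r85, on chromosome 7, had the largest change: its level was 0.148 in C57BL/6J controls (authors' SD after scaling 0.371) and 6.79 after DEHP (2.63), a change of 2.76 that rests on a deposited control mean of 0.2. Vmn1r113 had a level of 0.890 (SD 0.816) in controls and 11.5 (5.14) after DEHP, a change of 2.72, with overlapping possible ranges. Vmn1r235 went from 1.56 (1.56) to 11.3 (4.49), a change of 2.26. Vmn1r85 was separated, its possible ranges being 0 to 0.915 and 1.93 to 11.6, while Vmn1r113 and Vmn1r235 were not and carry many repeat-masked bases (46.6% and 56.1% of the probe).

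The other 6 separated members in C57BL/6J had smaller changes than Vmn1r85. Vmn1r68 had a level of 1.19 (SD 0.667) in controls and 6.13 (0.657) after DEHP, a change of 1.71. Vmn1r196 had 2.08 (0.519) and 7.11 (1.53), a change of 1.40, and Vmn1r38 had 1.56 (0.890) and 6.57 (1.53), a change of 1.57. Vmn1r188 had 0.371 (0.445) and 5.25 (1.53), a change of 2.19. Vmn1r228 and Vmn1r170 were listed at 0 in controls and had 3.61 (1.53) and 1.64 (0.438) after DEHP. In the plot of these members the C57BL/6J error bars lie apart, and those of FVB/N overlap for Vmn1r85, Vmn1r196 and Vmn1r228. Vmn1r188 is at 0 in both FVB/N groups.

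At the other end, the 5 members with a lower level after DEHP in C57BL/6J differed by less than their spread. Vmn1r210 had 6.89 (SD 3.71) in controls and 5.36 (1.64) after DEHP, a change of -0.31. Vmn1r88 had 6.97 (2.30) and 5.80 (1.09), a change of -0.23, and Vmn1r60, Vmn1r8 and Vmn1r16 had changes of -0.20, -0.19 and -0.12. Vmn1r88 and Vmn1r210 were the 2 members with the highest control levels in C57BL/6J.

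**Figure D2:**
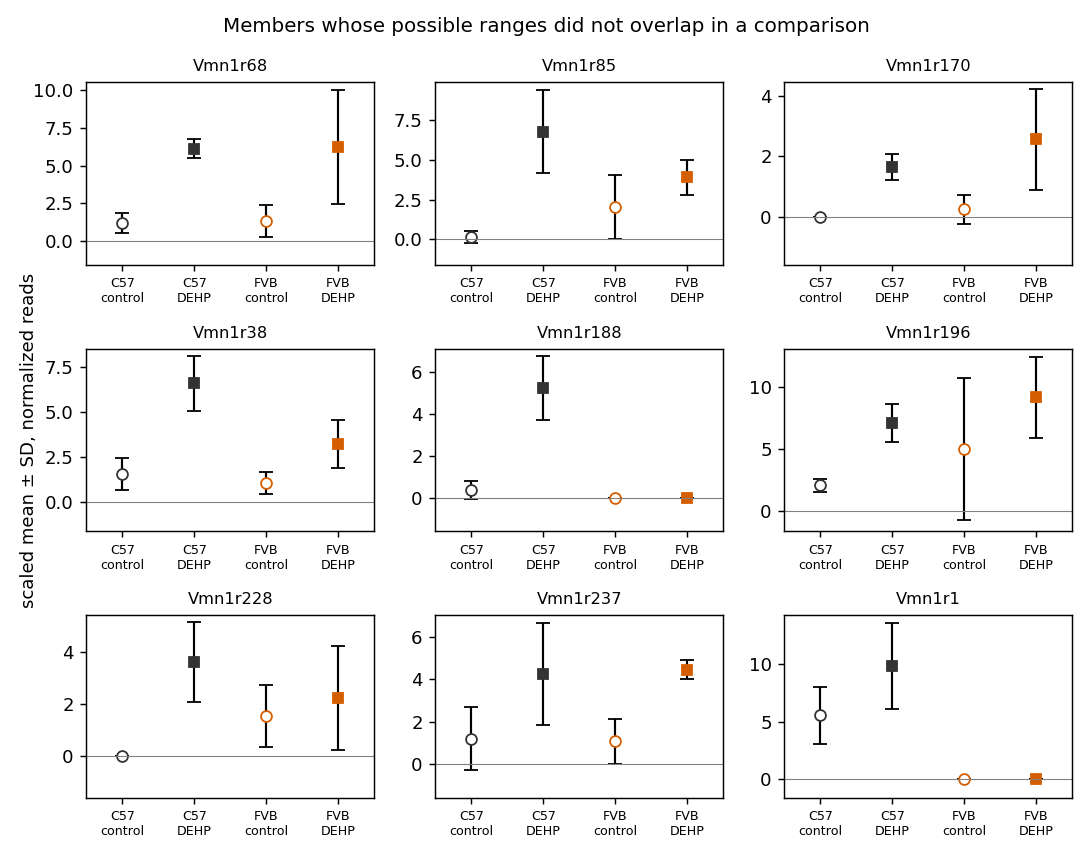
The 9 members with separated ranges in any comparison, with the scaled authors' mean and SD (error bars) of each group in normalized reads; open circles are controls, filled squares DEHP, black C57BL/6J and orange FVB/N. Vmn1r1 and Vmn1r188 sit at 0 in both FVB/N groups, and Vmn1r237 is the member separated after DEHP in FVB/N.

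The same question was asked in FVB/N. There 125 of 144 members had a higher level after DEHP and 17 a lower one, and the median change was 0.78, beside 0.29 for all promoters. The summed level was 226 in controls and 499 after DEHP, a ratio of 2.21. Changes above 1 numbered 57 (39.6%; all promoters, 13.6%) and changes below -1 numbered 1 (3.61%). The increase was larger than the spread at 35 members (7.51%) and the decrease at 0 (4.32%). A single member was separated upward (0.627%) and 0 downward (1.04%). Without members listed at 0 in either FVB/N group, 51 of 133 were above 1 and the median was 0.77. Scaling to equal medians left 27 members above 1, beside 3.86% of all promoters, whereas a pseudocount of 0.1 gave 88, beside 23.2%. With equal medians the increase was larger than the spread at 13 members (all promoters, 2.06%) and none was separated upward.

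The separated member was Vmn1r237 on chromosome 17, with 1.07 (SD 1.07) in FVB/N controls and 4.46 (0.446) after DEHP, a change of 1.40, and it was no longer separated with equal medians. Among members with reads in both FVB/N groups, the largest changes were those of Vmn1r35, from 0.357 (0.713) to 4.46 (2.23), and Vmn1r234, from 1.31 (1.43) to 7.70 (3.46), with changes of 2.01 and 1.91. Vmn1r33 had 1.66 (2.50) and 8.81 (4.69), a change of 1.88, and Vmn1r229 had 0.476 (1.19) and 4.13 (2.45), a change of 1.80. Vmn1r223, whose change was also among the 5 highest in FVB/N, was listed at 0 in controls and had 2.79 (1.79) after DEHP, so no change is given for it. Apart from Vmn1r237, the possible ranges of these members overlapped between the groups.

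Lower levels after DEHP in FVB/N were seen at Vmn1r8, from 1.66 (SD 1.90) to 0.223 (0.446), a change of -1.12, the member below -1. Vmn1r88 had 11.4 (7.13) and 6.69 (2.79), and Vmn1r45 had 12.4 (4.28) and 7.81 (2.23), with changes of -0.69 and -0.60. Vmn1r214 and Vmn1r231 had changes of -0.64 and -0.64. At each of these 5 the ranges of mean ± 1 SD overlapped. Vmn1r88 and Vmn1r8 had lower levels after DEHP in both strains.

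Most members were higher after DEHP in both strains, while the sizes of their changes went together weakly (Spearman's rho = 0.28, Pearson's r = 0.28). The level was higher in both strains at 122 of 144 members (84.7%; all promoters, 55.2%). In the family 96.5% were higher in C57BL/6J mice and 86.8% in FVB/N. Changes above 1 in both strains were found at 36 members. Of the members above 1 in C57BL/6J mice 46.8% were above 1 in FVB/N too, beside 39.6% of all members. Of those above 1 in FVB/N 63.2% were above 1 in C57BL/6J, beside 53.5% of all members. The 36 were 25% of the family, beside 5.08% of all promoters. Above 1 in C57BL/6J alone were 41 members, in FVB/N alone 21 and in neither strain 46. Over all promoters 14.7% were above 1 in C57BL/6J mice, 13.6% in FVB/N and 5.08% in both, counted with and without the other strain. Increases larger than the spread in both strains were found at 18 members. They were among 57 in C57BL/6J mice (39.6%, all promoters 11.8%) and 35 in FVB/N (24.3%, all promoters 7.51%). The share of all promoters with such increases in both strains was not computed, so the 18 are given as a count only. Among the 18 were Vmn1r68 (changes of 1.71 in C57BL/6J mice and 1.65 in FVB/N), Vmn1r35 (1.51 and 2.01), Vmn1r234 (1.34 and 1.91) and Vmn1r38 (1.57 and 1.03).

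**Figure D3:**
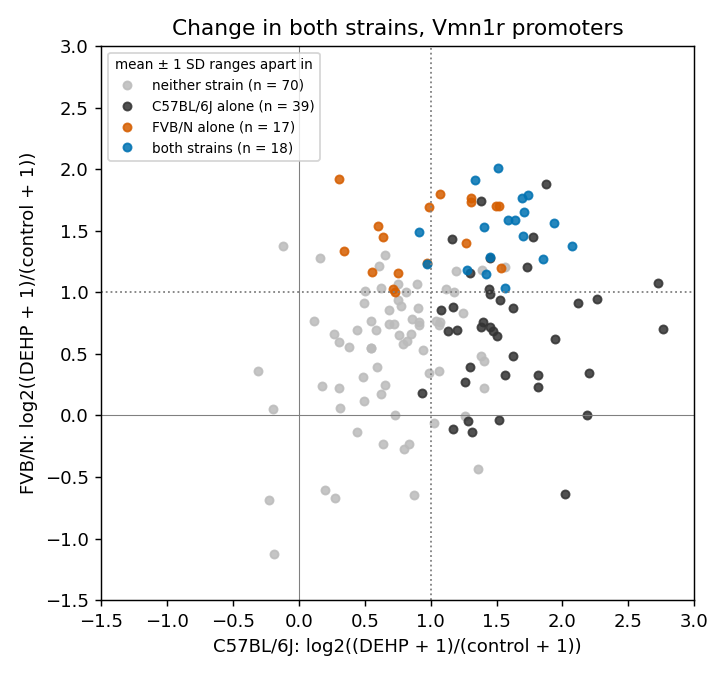
Change after DEHP in C57BL/6J (x axis) and FVB/N (y axis), log2((DEHP + 1)/(control + 1)), for the 144 Vmn1r promoters; colours give the strains in which the ranges of mean ± 1 SD lay apart, and dotted lines mark a change of 1. Most points lie in the upper right quadrant. Increases larger than the spread were found at 57 members in C57BL/6J and 35 in FVB/N, 18 of them in both strains.

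The change in C57BL/6J minus that in FVB/N had a median of 0.20. It was above 1 at 23 members (16%; all promoters, 6.66%) and below -1 at 3 (2.08%; all promoters, 3.25%), Vmn1r16, Vmn1r29 and Vmn1r223, and whether the changes of the strains differ was not tested. Vmn1r231 had the largest difference, being listed at 0 in C57BL/6J controls and at a level of 3.06 after DEHP, with 1.43 and 0.558 in FVB/N. For Vmn1r85 the FVB/N levels were 2.02 (SD 2.02) and 3.91 (1.12), a change of 0.70 beside 2.76. In the other direction Vmn1r16 had levels of 2.59 and 2.30 in C57BL/6J mice and 0.713 and 3.46 in FVB/N, with changes of -0.12 and 1.38.

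By position the 144 members formed 12 clusters when a gap of over 1 Mb started another one, and 9 of these held at least 3 members. On chromosome 6 they were cluster 6A (56.95 to 58.47 Mb, 26 members), 6B (66.56 to 66.81 Mb, 8 members) and 6C (89.71 to 90.27 Mb, 13 members). On chromosome 7 they were 7A (5.15 to 6.01 Mb, 8 members), 7B (10.28 to 13.22 Mb, 21 members), 7C (20.10 to 21.27 Mb, 5 members) and 7D (22.79 to 24.05 Mb, 12 members). The clusters of chromosome 13 (22.09 to 23.25 Mb, 34 members) and chromosome 17 (20.42 to 21.31 Mb, 13 members) were single blocks. Vmn1r1 on chromosome 1, Vmn1r90 at 14.56 Mb of chromosome 7 and a pair at 26.26 to 26.61 Mb of chromosome 7 stood outside them. Member probes did not overlap each other, the shortest gap within a cluster being 6267 bp.

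The median change was above that of all promoters in each of the 9 clusters and in both strains. In C57BL/6J the highest cluster medians were on chromosome 17 (1.34), chromosome 13 (1.33) and in 7A (1.28), and the lowest in 6C (0.78), 7C (0.79) and 6A (0.81). On chromosome 17, 12 of 13 members were above 1, all but Vmn1r232 with 0.73, and on chromosome 13 it was 21 of 34. In 6A it was 10 of 26 and in 6C 4 of 13. In FVB/N the cluster medians ran from 0.58 in 7C to 1.09 in 7A, with 7 of 13 members above 1 on chromosome 17 and 10 of 34 on chromosome 13. The chromosome 13 cluster thus had medians of 1.33 in C57BL/6J mice and 0.75 in FVB/N, whereas 6B had 0.98 and 1.05 and 7D had 1.03 and 1.01. All these medians lie among members whose changes overlap from cluster to cluster.

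**Figure D4:**
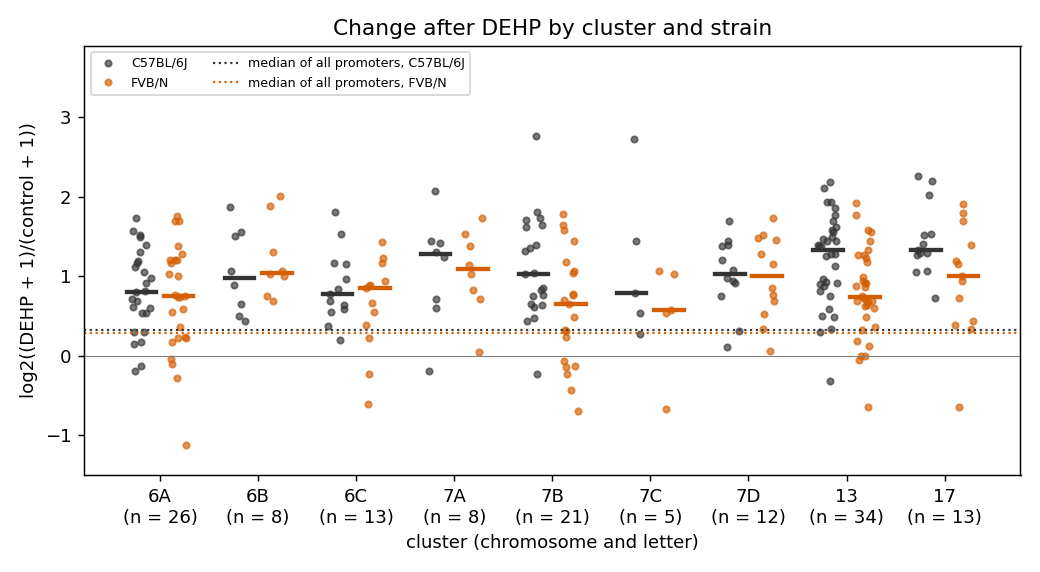
Change after DEHP, log2((DEHP + 1)/(control + 1)), by cluster for C57BL/6J (black) and FVB/N (orange); each point is a promoter, bars are cluster medians and dotted lines the medians of all promoters (0.33 and 0.29). Every cluster median lies above its dotted line, and the chromosome 13 medians are 1.33 and 0.75.

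Promoters poor in CG sites also had higher levels after DEHP outside the family, so the members were set beside promoters with as many sites. Of 1890 promoters outside the family with at most 10 sites, 766 were of olfactory receptors (Olfr) and 69 of type 2 vomeronasal receptors (Vmn2r). A comparison without these receptor families was not made. With 6 to 10 sites, where 85 members lie, the median change in C57BL/6J was 1.26 for members and 0.96 for 1461 other promoters, and 63.5% and 47.2% were above 1. In FVB/N these medians were 0.94 and 0.78, with 45.9% and 33.7% above 1. With 1 to 5 sites the 31 members and 429 other promoters had medians of 0.80 and 0.89 in C57BL/6J mice and 0.59 and 0.59 in FVB/N. With 11 to 15 sites the 24 members and 1440 other promoters had 0.94 and 0.73 in C57BL/6J mice and 1.01 and 0.78 in FVB/N. In each of these 3 classes the promoters outside the family had medians above those of all promoters. Vmn1r88, the member with over 20 sites, was lower after DEHP in both strains, beside medians of 0.22 and 0.18 for 17541 other promoters of that class.

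**Figure D5:**
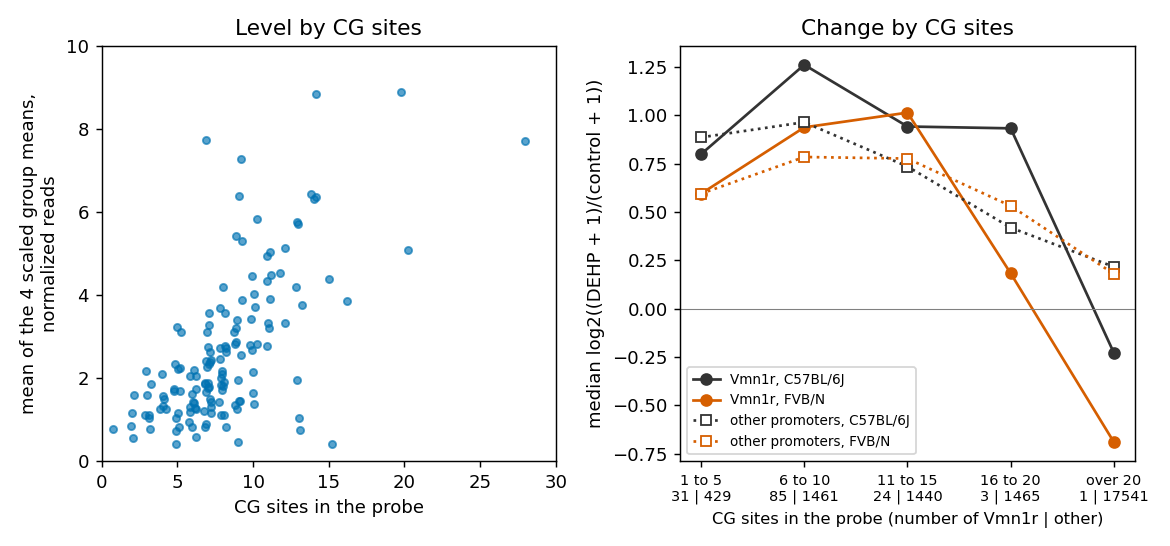
Left, level of each of the 144 members (mean of the 4 scaled group means, normalized reads) against the CG sites in its probe; right, median change after DEHP by class of CG sites for members (filled circles) and other promoters (open squares) in C57BL/6J (black) and FVB/N (orange), with the numbers of promoters under each class. Levels go up with CG sites, and the medians of members and of other promoters are above 0 up to 20 sites; points are shifted slightly sideways for sight, and the last 2 classes hold 3 members and 1 member.

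Between the strains, whose libraries within a treatment shared a submission, the comparison asked how far the promoters of both backgrounds differ. In controls the change of FVB/N over C57BL/6J had a median of 0.10, beside -0.00 for all promoters, with 7 members above 1 (2.55% of all promoters) and 3 below -1 (3.21%), Vmn1r1, Vmn1r16 and Vmn1r229. Differences larger than the spread were found at 2 members higher in FVB/N, Vmn1r45 and Vmn1r228 (1.45%), and at 2 lower, Vmn1r1 and Vmn1r223 (2% of all promoters). None was separated upward (0.111%), and Vmn1r1 was separated downward (0.307%). After DEHP the median was -0.14, beside -0.02, with 2 members above 1 (0.485%), Vmn1r11 and Vmn1r223, and 7 below -1 (2.89%). Differences larger than the spread numbered 0 upward (0.894%) and 4 downward (2.59%), at Vmn1r1, Vmn1r38, Vmn1r188 and Vmn1r189. None was separated upward (0.0356%), and Vmn1r1 and Vmn1r188 were separated downward (0.294%). With means as deposited the control comparison had 4 members above 1 (0.556% of all promoters) and 13 below -1 (16.4%). There 1 was higher (0.258%) and 4 were lower (9.84%) by more than the spread. After DEHP means as deposited gave 0 above 1 (0.298%) and 6 below -1 (2.69%). Equal medians gave 15 above 1 (4.14%) and 4 below -1 (3.496%) in controls, and 1 (0.440%) and 5 (1.92%) after DEHP. A pseudocount of 0.1 gave 26 (8.56%) and 16 (7.61%) in controls, and 2 (2.26%) and 16 (6.80%) after DEHP.

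Vmn1r1, the member on chromosome 1, was listed at 0 in both FVB/N groups, while C57BL/6J controls had a level of 5.56 (SD 2.45) and C57BL/6J DEHP 9.85 (3.72). Vmn1r188, at the start of the chromosome 13 cluster, was likewise listed at 0 in both FVB/N groups, with 0.371 (0.445) and 5.25 (1.53) in C57BL/6J. Of sequences of 51 bases in the probes, 99.1% were unique for Vmn1r1 and 80.6% for Vmn1r188, in an assembly built from C57BL/6J. The table listed 0 strain variants for each. The 16 and 6 CG sites of these probes, some of them in capitals above, were thus at a mean that rounds to 0 in both FVB/N groups. Whether FVB/N lacks the sequence or lacks methylation there cannot be told apart.

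Strain variants, counted in the table per promoter, were listed for 45 members, and 99 (68.8%) had none, beside 53.9% of all promoters. All 47 members on chromosome 6 had 0 variants, as did the 17 of 7C and 7D, while 18 of 21 in 7B and 12 of 13 on chromosome 17 had at least 1. Vmn1r72 and Vmn1r78 had the most (42 each), followed by Vmn1r189 (17). Vmn1r72 had levels of 2.82 and 5.47 in C57BL/6J mice and 1.55 and 3.01 in FVB/N, with changes of 0.76 and 0.66. Vmn1r78 had 0.371 and 3.28 in C57BL/6J, was listed at 0 in FVB/N controls and had 2.01 after DEHP. Vmn1r189 had 0.667 (SD 0.371) and 3.06 (0.985) in C57BL/6J, with 1.07 (1.07) and 1.0 (0.669) in FVB/N. In size, the strain difference in controls had a median of 0.31 for members with 0 variants, 0.40 with 1 to 4 and 0.30 with 5 or more, beside 0.30, 0.31 and 0.40 outside the family. The median change after DEHP in C57BL/6J was 0.94, 1.25 and 1.40 in these classes of members, and 0.85, 0.72 and 0.94 in FVB/N. Outside the family it was 0.33, 0.33 and 0.33 in C57BL/6J mice and 0.30, 0.28 and 0.28 in FVB/N. The classes of members also differ in cluster, and neither was tested.

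The change was also present at members with unique sequence. The 75 members with at least 95% unique sequences of 51 bases had median changes of 1.07 in C57BL/6J, where all 75 were above 0, and 0.77 in FVB/N. The 26 members under 80% had 0.70 and 0.72. Of the 7 members separated in C57BL/6J, 5 were in the first class.

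The other chemosensory receptor families were set beside the members. The 94 Vmn2r promoters, of the type 2 receptors of basal vomeronasal neurons, had medians of 0.98 in C57BL/6J mice and 0.75 in FVB/N, and the 1074 Olfr promoters, of olfactory receptors, had 0.97 and 0.81, with a median of 8 CG sites in each family. Genes through which vomeronasal receptors work were taken as a list of 16. These promoters, of vomeronasal signalling and neuron identity genes, had a median of 60.5 CG sites and median changes of -0.03 in C57BL/6J mice and 0.09 in FVB/N. In C57BL/6J 1 was above 1 (Ncam2) and 2 below -1 (Omp and Meis2, the latter listed at 0 after DEHP), and in FVB/N 0 were above 1 and 1 below -1 (Omp). Increases larger than the spread were found at 0 of 16 in either strain (all promoters, 11.8% in C57BL/6J mice and 7.51% in FVB/N). Such decreases were found at 2 in C57BL/6J mice (2.63%) and 1 in FVB/N (4.32%). Over all promoters 14.7% were above 1 and 2.22% below -1 in C57BL/6J mice, with 13.6% and 3.61% in FVB/N.

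Gnai2, the partner of these receptors, had levels of 9.71 (SD 2.52) and 11.5 (3.94) in C57BL/6J, with 6.78 (3.21) and 11.3 (3.57) in FVB/N, within the spread. Trpc2, the cation channel that opens on receptor signalling, had 18.4 (7.86) and 15.2 (8.86) in C57BL/6J, with 15 (17.1) and 18.5 (5.36) in FVB/N, also within it. Omp, a marker of mature chemosensory neurons, had 72.4 (20.8) and 29.0 (13.2) in C57BL/6J, with 82.5 (24.5) and 32.0 (10.4) in FVB/N, lower after DEHP by more than the spread in both strains, with changes of -1.29 and -1.34. Ano2, a chloride channel, had 27.5 (6.45) and 17.2 (3.5) in C57BL/6J, the other decrease larger than the spread.

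Promoters with known states in sperm were set beside the family as a check of the tissue. H19, upstream of which sperm DNA is methylated, had levels between 18.8 and 22.4 in the 4 groups. Of the promoters unmethylated in sperm, Ddx4 had 6.23 to 11.3, Dazl 3.12 to 12.6, Sycp3 1.67 to 5.71, Mael 9.71 to 11.3, Peg3 4.0 to 9.04, Snrpn 0.371 to 4.91 and Mest 1.71 to 2.90, beside medians of all promoters of 3.57 to 5.80. Mael, Ddx4 and Peg3 were above the median of all promoters in each group, and DNA of other cells was not measured. Dazl (12.6 and 3.12) and Sycp3 (5.71 and 1.67) were lower after DEHP by more than the spread in FVB/N. Snrpn, whose probe held 15 CG sites, went with the members: it had 0.371 (SD 0.519) and 4.38 (1.09) in C57BL/6J, separated, and 1.31 (1.43) and 4.91 (1.34) in FVB/N. The part of these promoters, of the submission, of depth and of read length in the family's change was not tested.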

How the data were processed

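MBD-seq of sperm DNA from 20 males (5 per group) was processed by the authors. Reads were aligned to mm10 with Bowtie 0.12.7, pairs with several matches and pairs without a CG site between their ends were removed, and edgeR, whose version is not given in the sources used here, compared the groups. The deposited signal is the authors' mean and SD of normalized reads per probe and group, with 1 decimal. The study gives average numbers of read pairs, higher for DEHP than for control libraries. The depth of each library was not used here, so no counting interval was given. The table also holds 9 columns of the authors' comparisons (fold changes, p-values and false discovery rates) and 6 columns of expression from another study, none of which was used. Numbers of CG sites and strain variants were taken as deposited.

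Means and SDs were multiplied by factors that give the 4 groups equal sums (0.741 and 1.09 for controls and DEHP males of C57BL/6J, 1.19 and 1.12 for those of FVB/N). Changes used a pseudocount of 1 normalized read. Ranges for separation were widened by the rounding of 0.05. CG sites, GC content, masked repeats and unique sequences were computed from GRCm38.p6, the last at every 20th base. The procedure was tested on simulated data, with changes placed only at promoters that had more reads in C57BL/6J controls than most members. The members' median authors' mean there was 1.4, so the simulation does not cover most of them. Python 3.11.15, numpy 2.4.6, pandas 2.3.3, scipy 1.17.1, numba 0.67.0 and matplotlib 3.10.9 were used.

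Members named were those with the 5 highest and 5 lowest changes per strain at a mean level of at least 1 normalized read, those separated, the 5 highest in level, the 3 with most and 3 with fewest CG sites and the 3 with most variants; members named besides were chosen after their values were seen. Alternatives were means as deposited, equal medians, equal sums without the 100 highest promoters, a pseudocount of 0.1, a minimum level and other cluster gaps. The members and lists were chosen with earlier results of these data known.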

Additional observations from a re-analysis of the deposited data

How the results depend on the processing

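Limits: the deposited values are group means, so leaving out each replicate was not run and no difference was tested. No paired analysis was made, since the groups hold different males and single libraries were not used. Counting overlapping probes once was the same as the main count, since member probes did not overlap. Most members had 1 to 3 normalized reads, so small changes of single members are uncertain. The SD of a change, taken from the authors' SDs between libraries, had a median over members of 0.86 in C57BL/6J mice and 1.02 in FVB/N. It describes spread between libraries and sets no lowest change that group means or the family median can show. The family medians after DEHP stayed above those of all promoters under each of the 4 alternatives on scaling and pseudocount, and their direction was kept under all 7. Means as deposited moved the median of all promoters by -0.43 in C57BL/6J mice and 0.06 in FVB/N, and equal medians by -0.50 and -0.47; the family then had medians of 0.76 and 0.82, and of 0.68 and 0.46, beside -0.10 and 0.35, and -0.16 and -0.18 for all promoters. Members above 0 in C57BL/6J then numbered 130 and 129, and in FVB/N 126 and 110. Equal sums without the 100 highest promoters and a minimum level of 1 normalized read moved no count by over 1.5 times.

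Means as deposited gave 51 members above 1 after DEHP in C57BL/6J (all promoters, 5.09%). There 31 had an increase (3.67%) and 1 a decrease (11.8%) larger than the spread. In FVB/N they gave 0 below -1 (2.68%) and 2 separated upward. In FVB/N over C57BL/6J means as deposited gave 4 above 1 (0.556%) and 13 below -1 (16.4%) in controls. By more than the spread 1 was higher (0.258%) and 4 were lower (9.84%), and 0 were above 1 after DEHP (0.298%). Equal medians gave 45 above 1 in C57BL/6J (3.83%), with 30 increases (3.11%) and 1 decrease (13.9%) larger than the spread. In FVB/N they gave 27 above 1 (3.86%) and 3 below -1 (13.5%). There 13 increases (2.06%) and 1 decrease (10.1%) were larger than the spread and 0 members were separated upward. Between strains equal medians gave 15 above 1 in controls (4.14%) and 1 after DEHP (0.440%). A pseudocount of 0.1 gave 88 above 1 (23.2%) and 4 below -1 (6.63%) in FVB/N. Between strains it gave 26 above 1 (8.56%) and 16 below -1 (7.61%) in controls, and 16 below -1 after DEHP (6.80%).

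Alternatives chosen after seeing the data kept fewer members by construction, and the shares over all promoters stayed those of the main counts. Of the 75 members with at least 95% unique sequences, 43 (57.3%) were above 1 in C57BL/6J mice and 29 (38.7%) in FVB/N, with 29 and 20 increases larger than the spread and 0 below -1 in FVB/N. Between strains 3 were above 1 in controls, with 1 higher and 1 lower by more than the spread, and after DEHP 1 was above 1, 3 below -1, 2 lower by more than the spread and 1 separated downward. Of the 126 members not listed at 0 in a group, 4 were separated upward in C57BL/6J. Between strains 1 was higher and 0 lower by more than the spread in controls, with 0 separated downward, and after DEHP 1 was above 1, 3 below -1, 2 lower by more than the spread and 0 separated downward. Clusters numbered 12 with a gap of 1 Mb and stayed within 1.5 times of that with gaps of 0.5 and 2 Mb. The cause of these differences was not tested.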
